A study of Mus musculus with 8 samples.

Results

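The enzymes that break down tryptophan, phenylalanine and tyrosine were followed through the livers of neonatal mice without myosin Vb. These were 9 genes, taken by symbol: Tdo2, Afmid, Kmo, Kynu and Haao of the kynurenine route from tryptophan, and Tat, Hpd, Hgd and Fah of the route from tyrosine. All 9 were matched among the 48440 genes of the count table, and all 9 passed the filter on low counts, which left 18274 genes for testing. RNA came from whole liver of 4 CD1 pups that lacked Myo5b in the germline and 4 littermate controls, heterozygous or wildtype, taken at 3 to 8 days of age. The 2 control genotypes are not told apart in the labels, and the age, sex and litter of each pup are not given there, so a difference in any of these cannot be told apart from genotype for a single liver. The deletion is present in every tissue, including the gut that supplies the portal blood, so liver values do not separate an effect within hepatocytes from one that begins elsewhere. Myo5b encodes a motor that moves recycling endosomes along actin towards the apical surface, in hepatocytes the bile canaliculus.

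The liver is the main site of aromatic amino acid breakdown. Tryptophan enters the kynurenine route when its ring is opened by tryptophan dioxygenase (Tdo2), and the formamide that results is hydrolysed by Afmid. Kmo hydroxylates kynurenine, Kynu removes its alanine side chain, and Haao opens the ring again, giving a product that either becomes quinolinate and then NAD or is burned completely. Phenylalanine joins the other route once it has been turned into tyrosine. Tat takes the amino group from tyrosine, Hpd and Hgd oxidise the ring in turn, and Fah splits the last intermediate into fumarate and acetoacetate. Loss of HGD in people causes alkaptonuria and loss of FAH causes hepatorenal tyrosinaemia. Tat is a textbook example of a liver enzyme that appears around birth, and both Tat and Tdo2 are induced by glucocorticoids.

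Promoter sequence is shown for 4 of the genes, because the results below turn on them: Tdo2 and Kmo, which had the largest falls of the 9, Haao, whose values within a genotype were close together, and Tat, which did not move with the others. RefSeq sequence (GRCm38.p6) matched 8 of the 9 genes, Kynu being the one not matched. Each line gives the 250 bases before the RefSeq start on the gene's strand, at chr3:81975729-81975978 (minus strand) for Tdo2, chr1:175631943-175632192 (plus) for Kmo, chr17:83846791-83847040 (minus) for Haao and chr8:109990186-109990435 (plus) for Tat. For Tdo2, Kmo and Haao the RefSeq start lies inside the gene span given below, well inside it for Kmo, whose span begins at 175620381. Windows before other starts of these genes were not searched. Capitals mark matches on either strand to the TATA letters TATAAA and their variant ATAAAA, the CCAAT box, the HNF1 core GTTAAT and the HNF4 core GGTCAAAG.
Tdo2: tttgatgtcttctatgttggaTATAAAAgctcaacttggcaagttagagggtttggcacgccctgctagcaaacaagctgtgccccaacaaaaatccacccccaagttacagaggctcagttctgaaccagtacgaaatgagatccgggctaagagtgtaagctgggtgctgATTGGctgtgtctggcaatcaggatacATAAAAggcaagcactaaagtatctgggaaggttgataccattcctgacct
Kmo: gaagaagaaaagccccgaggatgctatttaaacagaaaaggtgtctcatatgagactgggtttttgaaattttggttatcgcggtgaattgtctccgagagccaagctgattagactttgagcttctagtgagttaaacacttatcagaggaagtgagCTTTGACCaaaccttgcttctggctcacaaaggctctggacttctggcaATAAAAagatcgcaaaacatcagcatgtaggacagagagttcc
Haao: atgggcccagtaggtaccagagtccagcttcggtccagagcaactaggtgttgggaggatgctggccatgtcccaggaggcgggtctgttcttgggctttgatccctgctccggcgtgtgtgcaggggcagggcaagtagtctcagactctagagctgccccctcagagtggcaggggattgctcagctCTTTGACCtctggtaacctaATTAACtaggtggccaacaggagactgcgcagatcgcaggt
Tat: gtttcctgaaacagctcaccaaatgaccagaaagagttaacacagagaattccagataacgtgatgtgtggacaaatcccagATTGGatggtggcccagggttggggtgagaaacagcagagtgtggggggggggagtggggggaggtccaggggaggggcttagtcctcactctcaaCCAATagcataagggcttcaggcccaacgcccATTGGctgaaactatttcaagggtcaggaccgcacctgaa

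The letters GGTCAAAG stood on the reverse strand in Kmo, beginning 92 bases before the start, and in Haao, 61 bases before it, and in 0.835% of the 32817 promoter windows searched. Among the 8 windows searched no other listed gene had them. GTTAAT occurred in Haao alone of the 8, 41 bases before the start, and in 6.44% of all windows. Tat held CCAAT 3 times, and Tdo2 and Hgd held it too, against 33.8% of all windows. TATAAA was found in Tdo2 and Hgd (12.4% of all windows) and ATAAAA, which overlaps it by 5 bases where both occur together, in Tdo2 and Kmo (17.0%). The full palindromes searched for HNF1 and the glucocorticoid receptor (0.00914% of all windows each), TTGCGCAA for C/EBP (0.165%) and TGACGTCA for CREB (1.55%) had no match in the 8 windows on either strand. CAAAGTCCA, an HNF4 site (0.384%), and TGTTTAC, a FOXA site (3.16%), had none either. GCGTG, the core read by the aryl hydrocarbon receptor, was present in Tdo2, Haao and Fah and in 28.1% of all windows. The TATA variant, the CCAAT box and the HNF4 core were added to the search after these sequences had been read. A match is a description of letters in this window and was not tested as a binding site.

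Library totals ran from 14228268 to 18398039 counts, and the listed genes had between 118 and 19347 counts each per liver. Values below are CPM, counts set relative to library size after TMM scaling, which makes libraries comparable when a few genes take many reads. A gene is called changed at an adjusted p under 0.05 in edgeR's quasi-likelihood test with Benjamini-Hochberg adjustment over all genes tested. Of these, 20.7% were called, 11.4% lower and 9.27% higher in knockout livers. Myo5b was 49.3 ± 7.06 CPM in knockout and 133 ± 33.1 CPM in control livers (SD, n = 4), and the 2 groups did not overlap. Which exons the allele removes is not stated in the sources used here. Hepatocyte-defining genes were abundant in every liver, with summed levels of 68341 to 79279 CPM in knockout and 96266 to 122286 CPM in control livers for 12 genes. Of these 12, Alb, Ttr and Cps1 fell, 9 were not called, and the median log2 fold change was -0.02. All 16 erythroid and all 17 cell-cycle genes fell, and 12 of 14 Kupffer cell and macrophage genes rose.

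Of the 9 genes, 7 fell in knockout livers and none rose. Those 7 were Tdo2, Afmid, Kmo, Kynu, Haao, Hpd and Fah, and for each of them every knockout liver was below every control liver, a separation seen in that direction for 12.8% of all genes tested and in the other for 10.8%. The median log2 fold change of the 9 was -0.80, against 0.01 over all genes tested. All 5 kynurenine genes fell, with a median of -1.04 and a range of -1.94 to -0.80. On the tyrosine route Hpd and Fah fell, while Hgd (adjusted p = 0.0529) and Tat (adjusted p = 0.685) did not pass in edgeR, and the median of the 4 was -0.51. In whole liver, fewer cells of a type and less RNA per cell cannot be told apart. The 12 hepatocyte-defining genes had a median of -0.02, with 3 lower and none higher, and their summed level was lower in every knockout than in any control. The part of hepatocyte number in the falls was not tested.

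**Figure D1:**
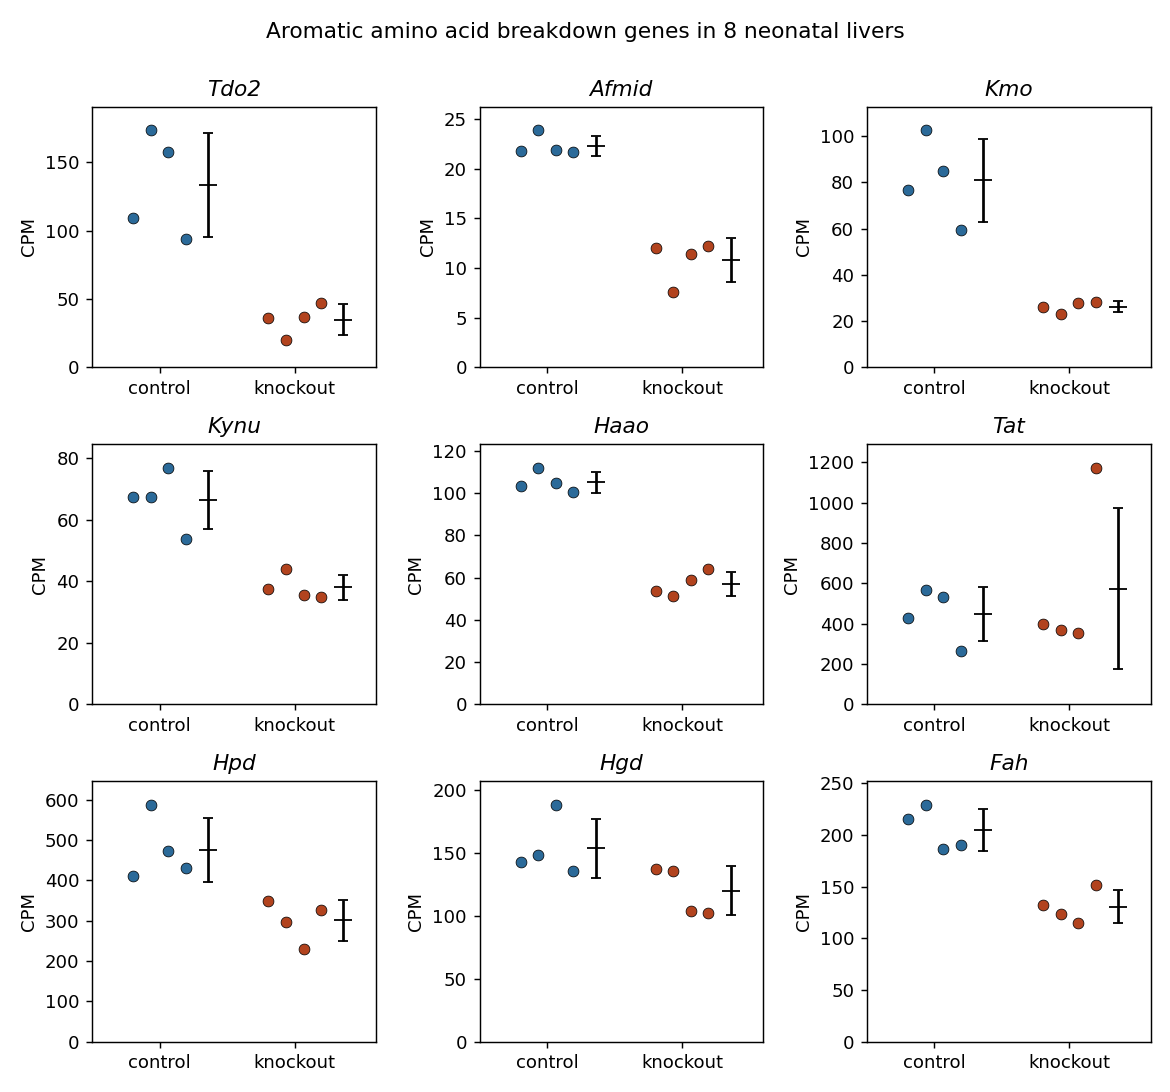
Each panel plots one gene, with CPM on the vertical axis starting at 0 and 1 point per liver, in order of animal number (279 to 282 for controls, 275 to 278 for knockouts); the bar to the right of each group is the mean with 1 SD (n = 4). The 2 groups are separate for all panels except Tat, where 1 knockout liver stands at 1174 CPM, and Hgd.

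Tdo2 (ENSMUSG00000028011; chr3:81957090-81976202, minus strand, GRCm38), which commits tryptophan to the kynurenine route, fell furthest of the 9. Its levels were 35.7, 19.8, 36.8 and 46.9 CPM in knockouts 275, 276, 277 and 278, and 109, 173, 157 and 94.0 CPM in controls 279, 280, 281 and 282. The lowest control was thus about 2 times the highest knockout, and knockout 276 was the lowest of the 8. The level was 3.83-fold lower in knockout livers (log2 fold change -1.94, SE 0.32; edgeR adjusted p = 0.00644). A called fall at least as large on the log2 scale was made for 0.706% of all genes tested. Livers of either genotype spread widely for this gene, at 34.8 ± 11.2 CPM in knockouts and 133 ± 37.8 CPM in controls (SD, n = 4).

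Afmid (ENSMUSG00000017718; chr11:117825924-117839908, plus strand), the formamidase of the next step, was 12.1, 7.54, 11.4 and 12.3 CPM in the knockouts and 21.8, 23.9, 21.9 and 21.7 CPM in the controls, in the same order of animals. The controls lay close together and no knockout came near them. Its log2 fold change was -1.04 (SE 0.16; edgeR adjusted p = 1.40e-04). Afmid shares 44.2% of its exonic bases with Gm20708, an overlapping gene model on the same strand with 0 counts in every liver, and 83 bases with Tk1 on the opposite strand. Tk1, which makes thymidine nucleotides in dividing cells, fell from 44.2 ± 1.77 to 25.5 ± 2.57 CPM (SD, n = 4; log2 fold change -0.79, SE 0.10). The sources used here do not state how reads in shared bases were assigned, so the level of Afmid is uncertain, and the part of Tk1 reads in its fall was not tested.

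Kmo (ENSMUSG00000039783; chr1:175620381-175662116, plus strand), the flavoprotein that makes hydroxykynurenine at the mitochondrial outer membrane, was 26.2, 22.9, 27.6 and 28.2 CPM in the knockouts and 76.8, 102.5, 85.0 and 59.5 CPM in the controls. All 4 knockouts lay close together, and the lowest control was control 282. The gene was 3.08-fold lower in knockout livers (log2 fold change -1.63, SE 0.14), with an edgeR adjusted p of 2.39e-06, the smallest among the 9. It ranked at 77 of 18274 genes by p, and a called fall at least as large was made for 1.21% of them. Kmo is also known from macrophages and microglia. Kupffer cell and macrophage markers, summed over 14 genes, were 1028 to 1206 CPM in controls and 1811 to 2078 CPM in knockouts. Which cells the Kmo reads came from was not tested.

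Kynu (ENSMUSG00000026866; chr2:43555329-43682715, plus strand), the kynureninase, was 37.6, 44.0, 35.7 and 35.1 CPM in the knockouts and 67.5, 67.3, 77.0 and 53.9 CPM in the controls. Its order among the knockouts differed from that of the genes before it in the route: knockout 276, the lowest for Tdo2, Afmid and Kmo, was the highest for Kynu. The log2 fold change was -0.80 (SE 0.11; edgeR adjusted p = 8.41e-05).

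Haao (ENSMUSG00000000673; chr17:83831156-83847963, minus strand), whose product is the branch point between NAD synthesis and complete oxidation, was 53.6, 51.1, 59.0 and 64.0 CPM in the knockouts and 103, 112, 105 and 101 CPM in the controls. Controls spread by only 4.89 CPM (SD, n = 4) and the gap between the groups was several times that. The log2 fold change was -0.88 (SE 0.09; edgeR adjusted p = 3.65e-06).

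Tat (ENSMUSG00000001670; chr8:109990437-109999803, plus strand) opens tyrosine breakdown and had the one log2 fold change above 0 among the 9. It was 398, 371 and 355 CPM in knockouts 275, 276 and 277 and 1174 CPM in knockout 278, against 431, 565, 530 and 265 CPM in controls 279 to 282. Knockout 278 thus had over 2 times the level of any other liver, while the other knockouts lay between control 282 and the remaining controls. The group means were 575 ± 400 and 448 ± 134 CPM (SD, n = 4), with a log2 fold change of 0.36 (SE 0.50; edgeR adjusted p = 0.685). Without knockout 278 the value turned to -0.26 (SE 0.26; adjusted p = 0.581), and without both knockout 278 and control 282 it was -0.44 (SE 0.10; adjusted p = 0.00660). The joint omission was added after seeing the data. It takes out the highest knockout and the lowest control for Tat, so its adjusted p is no test of a fall. The direction of Tat therefore rests on 1 liver. That liver also had the highest summed erythroid level of the knockouts, 1365 CPM against 643 to 928 CPM in the others, and the relation of these values was not tested.

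Hpd (ENSMUSG00000029445; chr5:123171807-123182727, minus strand), the dioxygenase blocked by nitisinone, was 348, 297, 230 and 328 CPM in the knockouts and 410, 587, 472 and 430 CPM in the controls. The groups were separate, with knockout 275 and control 279 nearest to each other. Its log2 fold change was -0.66 (SE 0.14; edgeR adjusted p = 0.00425).

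Hgd (ENSMUSG00000022821; chr16:37580153-37632020, plus strand), the oxidase of homogentisate, was 137, 136, 104 and 102 CPM in the knockouts and 143, 148, 188 and 136 CPM in the controls. Knockouts 275 and 276 sat at the level of control 282 and the others lay lower, so the groups overlapped. Its log2 fold change was -0.36 (SE 0.12), at an edgeR adjusted p of 0.0529. Without knockout 275 (log2 fold change -0.43), knockout 276 (-0.43) or control 282 (-0.42) it passed, as it did in DESeq2 (-0.36, adjusted p = 0.0413), with no low-count filter (-0.36) and with the genes above 1% of counts left out (-0.37). Over all 21 alternatives its value ran from -0.76 to -0.25.

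Fah (ENSMUSG00000030630; chr7:84585159-84606722, minus strand), the last enzyme of the route, was 133, 124, 115 and 152 CPM in the knockouts and 215, 229, 187 and 190 CPM in the controls. No knockout reached the lowest control, control 281. The log2 fold change was -0.65 (SE 0.10; edgeR adjusted p = 1.34e-04).

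**Figure D2:**
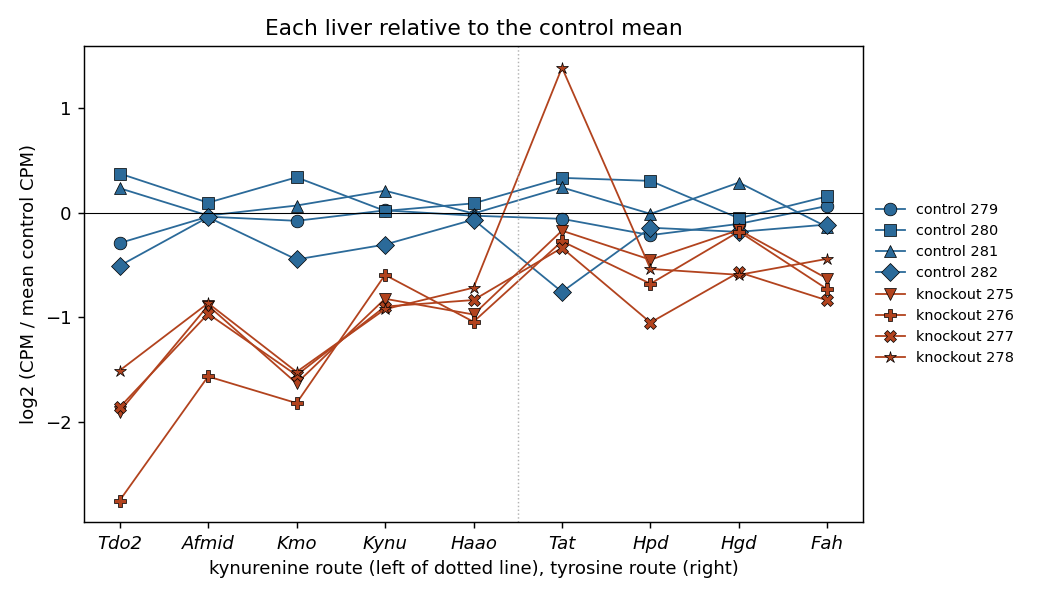
The vertical axis is the log2 ratio of each liver's CPM to the mean of the 4 controls, and the horizontal axis lists the 9 genes by route; each line is 1 liver, blue for controls and red for knockouts. Knockout lines lie below the control lines for the 5 kynurenine genes, and the line of knockout 278 rises above all others at Tat.

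The livers of a genotype kept partly the same order over the 9 genes. Among controls, liver 280 was highest for 7 genes and liver 282 lowest for 7. Among knockouts, liver 278 was highest for 6 genes (Tdo2, Afmid, Kmo, Haao, Tat and Fah) and liver 276 lowest for 4 (Tdo2, Afmid, Kmo and Haao). Kynu and Hgd went against this order, since liver 278 was the lowest knockout for both. With Tat left out, the other 8 genes took 0.0638% to 0.0786% of all counts in knockout livers and 0.109% to 0.136% in control livers. With Tat included the ranges met, at 0.101% to 0.198% and 0.135% to 0.189%.

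Per length, the tyrosine genes were the more abundant of the 9 in either genotype. Levels in RPKM, CPM divided by the exonic length in kilobases, were in controls 223 ± 37.2 for Hpd, 186 ± 55.9 for Tat, 92.6 ± 9.16 for Fah and 58.8 ± 8.97 for Hgd (SD, n = 4). Tdo2 followed at 34.4 ± 9.75, then Haao at 22.5 ± 1.04, Kmo at 17.1 ± 3.79, Kynu at 10.8 ± 1.55 and Afmid at 6.30 ± 0.297 RPKM. Among neighbours in that order, Hpd and Tat overlapped between livers, as did Haao and Kmo, and the other neighbours were separate. In knockouts Tat and Hpd again overlapped, and Fah and Hgd, separate in controls, overlapped too. Haao (12.2 ± 1.23 RPKM), Tdo2 (8.97 ± 2.88), Kynu (6.2 ± 0.666) and Kmo (5.55 ± 0.498) formed a run in which each overlapped its neighbour. Hpd, Tdo2 and Kmo each stood 1 place lower in the knockout order than in the control order.

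Ratios between genes within a liver do not depend on how libraries are scaled, and they were compared without a test. The RPKM ratio of Haao to Kmo was 2.07, 2.25, 2.16 and 2.29 in knockouts 275 to 278 and 1.36, 1.1, 1.24 and 1.71 in controls 279 to 282, so every knockout was higher. Kynu to Kmo was also higher in every knockout, at 1.13 ± 0.237 against 0.643 ± 0.0927 (SD, n = 4). Tdo2 to Hpd, the entry of the kynurenine route against the second step of tyrosine breakdown, was 0.0648 ± 0.0230 in knockouts and 0.153 ± 0.0265 in controls, with every knockout lower. Haao to Kynu (1.99 ± 0.379 and 2.11 ± 0.282), Kmo to Afmid, Hgd to Hpd and Fah to Hgd overlapped between genotypes. Hpd to Tat was lower in every knockout, at 0.988, 0.904, 0.730 and 0.315 against 1.07, 1.17, 1.005 and 1.83 in controls, though knockout 275 and control 281 were nearly equal.

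Tetrahydrobiopterin is the cofactor of the aromatic amino acid hydroxylases. Gchfr, the feedback regulator of its synthesis, fell (-1.02, SE 0.19), as did Pcbd1 (-0.33, SE 0.09), which was named after its value was seen. Dnajc12, a co-chaperone of the aromatic amino acid hydroxylases, rose. It was 51.7, 36.4, 32.7 and 17.7 CPM in the knockouts and 9.09, 12.8, 14.1 and 12.5 CPM in the controls, so that all knockouts were higher, knockout 278 least so (log2 fold change 1.51, SE 0.30; edgeR adjusted p = 0.00841). With erythroid expression as a covariate its sign turned (-0.41, SE 0.56). The other 5 genes of cofactor synthesis and recycling, Pcbd2, Qdpr, Gch1, Pts and Spr, were not called, with log2 fold changes from -0.36 for Pcbd2 to 0.31 for Spr (SE 0.11; edgeR adjusted p = 0.0509).

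Between Hgd and Fah, the isomerase Gstz1 fell by 0.28 on the log2 scale (SE 0.08; edgeR adjusted p = 0.0239). That call was lost without knockout 275 (-0.26), knockout 276 (-0.28), control 279 (-0.29) or control 280 (-0.23) and with library size alone as the scaling (-0.21). Among the other tyrosine genes, Got2, a mitochondrial aminotransferase, fell too (-0.44, SE 0.09). Its cytosolic counterpart Got1 was 172 ± 30.2 against 151 ± 17.2 CPM (0.19, SE 0.12; edgeR adjusted p = 0.317; 0.31 and called without knockout 278). Mif, named after its value was seen, was not called (0.07, SE 0.12). Il4i1 and Hpdl were too low to test.

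Of the 9 further genes of the kynurenine route that were tested, 6 fell and none rose, with a median of -0.78. The shares over all genes tested were 11.4% lower and 9.27% higher. Ido2, another tryptophan dioxygenase, was 0.464, 0.511, 1.16 and 2.12 CPM in the knockouts and 7.08, 6.97, 7.12 and 3.93 CPM in the controls, low but separate (-2.55, SE 0.41; edgeR adjusted p = 3.66e-04). Ido1, the immune-induced dioxygenase, had no count in 7 of the 8 livers and was not tested. Acmsd, which turns the product of Haao away from NAD, was 1.85 ± 0.516 against 5.28 ± 0.996 CPM and fell (-1.51, SE 0.29). Qprt, which takes the same product's derivative towards NAD, was 69.4 ± 10.8 against 74.2 ± 4.66 CPM and did not pass (-0.10, SE 0.11; adjusted p = 0.585). Gcdh, the glutaryl-CoA dehydrogenase shared with lysine breakdown, fell from 184 ± 21.6 to 93.7 ± 6.04 CPM (-0.97, SE 0.09; edgeR adjusted p = 2.28e-06).

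Of 3 transaminases that turn kynurenine into kynurenic acid, 1 was called. Aadat fell (-0.82, SE 0.16; edgeR adjusted p = 0.00158). Kyat3 was 263 ± 12.1 against 287 ± 8.99 CPM (-0.13, SE 0.08; adjusted p = 0.273). Kyat1 was 42.5, 27.7, 39.8 and 79.9 CPM in the knockouts and 34.1, 44.0, 37.9 and 35.2 CPM in the controls, with knockout 278 the highest, as for Tat. Its log2 fold change of 0.33 (SE 0.32; adjusted p = 0.540) turned to -0.043 without that liver.

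**Figure D3:**
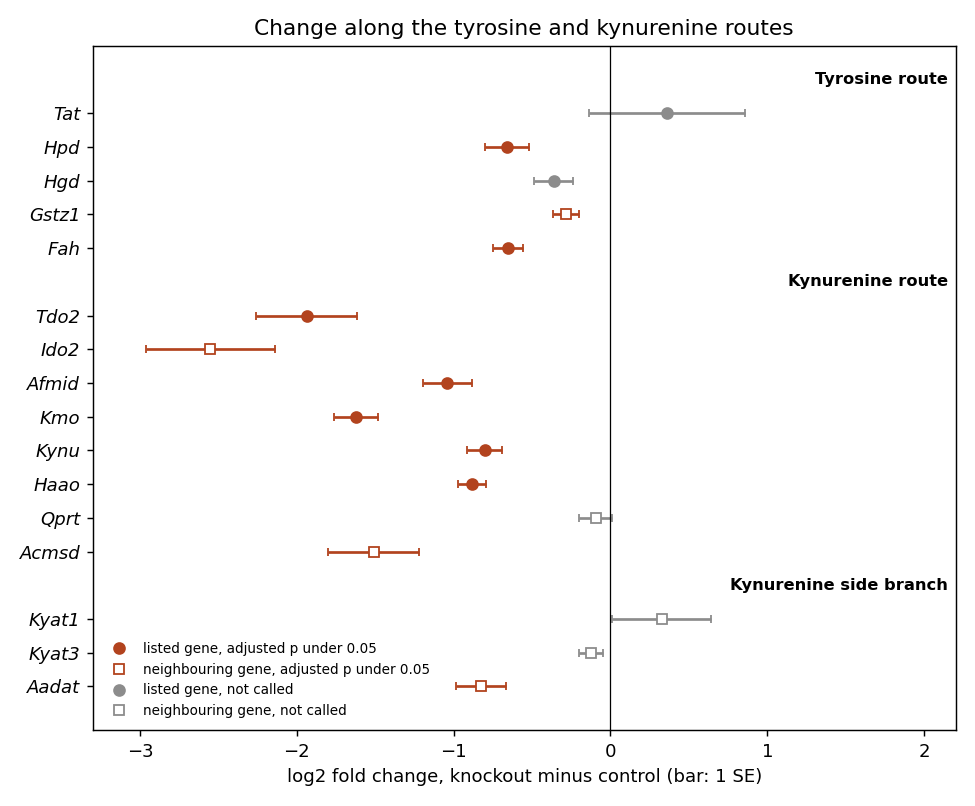
Points give the log2 fold change, knockout minus control, with 1 SE, for the 9 listed genes (circles) and their neighbours on the routes (open squares), in the order of the reactions; red marks an adjusted p under 0.05 and grey a gene not called. The kynurenine genes from Tdo2 to Haao all lie at -0.80 or lower, whereas Qprt, Kyat1, Kyat3, Tat and Hgd are not called.

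Genes around the routes were counted in 9 lists of 85 distinct genes, of which 79 could be tested: 27 fell, 11 rose and 41 were not called, against a background of 11.4% lower and 9.27% higher. Without knockout 276 the number that rose was 7. All 3 called genes of aromatic amine handling fell, namely Maob (157 ± 12.4 to 76.6 ± 0.979 CPM; -1.04, SE 0.08; edgeR adjusted p = 4.99e-07), Ddc (17.4 ± 2.63 to 8.70 ± 1.75 CPM) and Maoa (-0.88, SE 0.17). Maob and Maoa are the monoamine oxidases and Ddc is the aromatic amino acid decarboxylase. The fourth gene tested, Inmt, which methylates tryptamine and was named after its value was seen, was 2.44, 5.69, 10.5 and 36.2 CPM in the knockouts and 69.6, 85.0, 83.9 and 72.9 CPM in the controls. Every knockout was lower, knockout 278 least so, and it did not pass (-2.51, SE 0.77; edgeR adjusted p = 0.0713). Among further genes of NAD synthesis, Nmnat3 (-0.96, SE 0.21) and Nmrk1 (-0.70, SE 0.18) fell. Of the 8 tested, 6 were not called, and the median was -0.03. Nnmt, which methylates nicotinamide, was under 1 CPM in both groups on average and not called.

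Of 8 carriers of large neutral and aromatic amino acids, 4 fell and 2 rose, against 11.4% lower and 9.27% higher over all genes tested. Slc16a10, the aromatic amino acid carrier, was 16.9, 23.7, 18.5 and 32.0 CPM in the knockouts and 46.2, 37.3, 43.0 and 45.7 CPM in the controls (-0.92, SE 0.17; edgeR adjusted p = 0.00162). Slc43a1 (-0.80, SE 0.10) and Slc7a5 (-1.01, SE 0.19) fell as well, and knockout 278 was the highest knockout for all 3 carriers. With erythroid expression as a covariate Slc16a10 (0.42, SE 0.30) and Slc7a5 (0.31, SE 0.35) changed sign.

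Genes that respond to glucocorticoids or glucagon moved in both directions, with 3 of 12 higher, 2 lower and a median of -0.01. The shares over all genes tested were 9.27% higher and 11.4% lower. Zbtb16, induced by glucocorticoids, rose from 14.9 ± 2.76 to 38.5 ± 6.02 CPM (1.37, SE 0.15; edgeR adjusted p = 7.71e-06). Sgk1 (0.48, SE 0.10) and Gcgr (0.42, SE 0.09) rose too. Fkbp5 (-0.20, SE 0.12), Tsc22d3 (-0.20, SE 0.13), Crem (-0.24, SE 0.19) and Pck1 (-0.02, SE 0.13) were not called. Per1 (0.42, SE 0.28) and Ppargc1a (0.16, SE 0.29) were not called either. Sgk1, Gcgr and these uncalled genes were named after their values were seen. Sds, which breaks down serine, fell from 20.5 ± 7.24 to 2.32 ± 1.1 CPM (-3.14, SE 0.37), and G6pc, the glucose-6-phosphatase, fell by 0.64 on the log2 scale (SE 0.12). The glucocorticoid receptor gene Nr3c1, named for its role after its value was seen, was 126 ± 5.56 and 127 ± 6.05 CPM (SD, n = 4; adjusted p = 0.982).

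Among 17 liver transcription factors 4 rose, 2 fell and 11 were not called, against 9.27% higher and 11.4% lower over all genes tested. Tbx3, a T-box repressor (0.74, SE 0.13), and Cebpb (0.45, SE 0.12; 0.36 and not called without knockout 278 and control 282 together) rose, and the clock-controlled factor Hlf fell (-0.62, SE 0.14). Of 8 genes of the aryl hydrocarbon receptor, which kynurenine-derived ligands can activate, 3 fell and 1 rose, against the same shares of all genes. Cyp1a2, its classical target, was 19.8, 25.8, 23.8 and 64.0 CPM in the knockouts and 184, 158, 129 and 122 CPM in the controls (-2.16, SE 0.43; edgeR adjusted p = 0.0149; adjusted p = 0.0503 without knockout 276). Cyp1a1, of the same list, fell too (-1.02, SE 0.35; edgeR adjusted p = 0.0496). Nqo1 (-0.86, SE 0.31), Tiparp (0.30, SE 0.14), Ahrr (0.80, SE 0.54) and Cyp1b1 (1.51, SE 0.69) were not called. Cyp1a1 and these uncalled genes were named after their values were seen. The receptor's partner Arnt rose (0.34, SE 0.08). Ahr itself fell by 0.39 on the log2 scale (SE 0.11; adjusted p = 0.0215), with overlapping groups, a call lost without knockout 275 (-0.34), knockout 276 (-0.32) or control 279 (-0.35), 280 (-0.39) or 281 (-0.39).

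**Figure D4:**
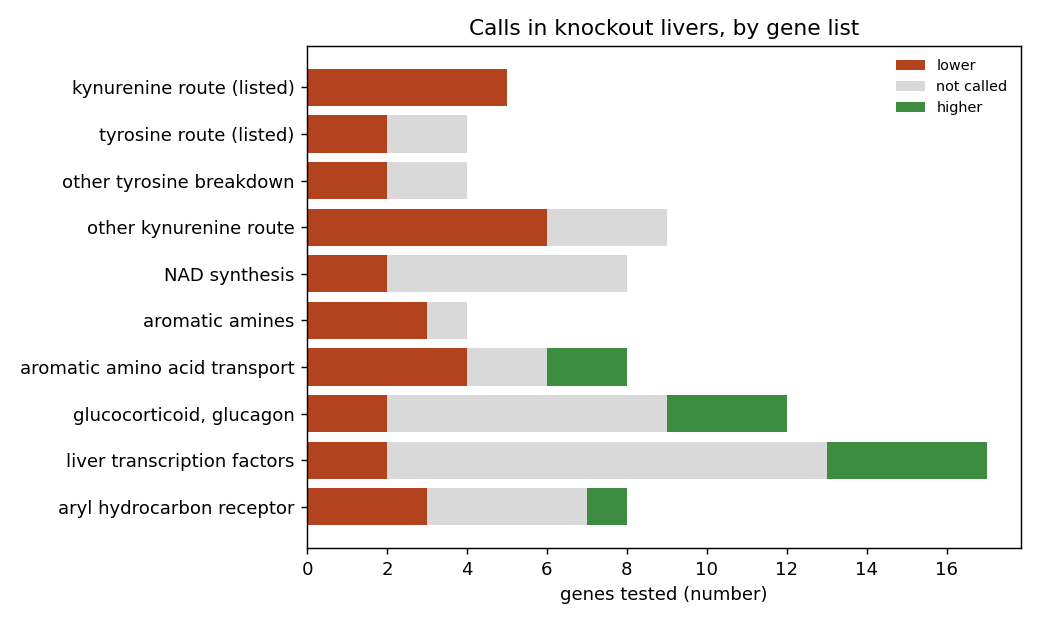
Bars give the number of tested genes in the 2 groups of listed genes and in 8 of the related lists, divided into those lower in knockout livers (red), not called (grey) and higher (green) at an adjusted p under 0.05. The kynurenine list holds 5 lower genes of 5, and the list of other kynurenine route genes 6 lower of 9 and none higher.

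Genes whose log2 CPM over the 8 livers most resembled each listed gene were taken by Pearson's r among 12172 genes with a mean of at least 5 CPM. The livers fall into 2 genotypes, so r mostly follows that difference, and it is given as a description. For Tdo2 they were Acat1 (r = 0.995), a thiolase that also acts in ketone and isoleucine metabolism and Mccc2 (0.992), a subunit of the leucine-pathway carboxylase. For Hpd they included Ivd (0.975), another leucine enzyme, and for Fah Sardh (0.993), the sarcosine dehydrogenase. Haao was closest to Ckap2 (0.998), a mitotic gene, and Afmid had Bub1 (0.988), a mitotic kinase, among its 3, in livers in which all 17 cell-cycle genes fell. Tat was closest to Gnpnat1 (0.972), Dnaja2 (0.943) and Adora1 (0.942), each of which had its highest value in knockout 278.

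Direction did not hang on the scaling for these genes: under TMM, median-ratio, upper-quartile and library-size scaling the same 8 were lower and Tat higher. Under library size alone, calls over all genes were 2300 higher and 1696 lower (57.6% higher, against 44.8% under TMM; the median of all genes was 0.08), and 7 of the 9 were still called lower. With the mean expression of erythroid genes as a covariate none of the 9 was called. In that comparison Tdo2 was -2.01 (SE 0.95), Kmo -1.98 (SE 0.39; adjusted p = 0.0633), Kynu -1.02 (SE 0.33), Afmid -1.08 (SE 0.45), Haao -0.75 (SE 0.25), Hpd -0.63 (SE 0.43) and Fah -0.31 (SE 0.26). Hgd was -0.76 (SE 0.36), and Tat was 2.04 (SE 1.05; adjusted p = 0.681), its highest value under any alternative. The covariate correlated with genotype at -0.94 over the 8 livers and the variance inflation of the genotype term was 8.42, and the errors were wider for all 9. Among the 7 that fell, the log2 value moved by over 1.5 times for Fah. The called neighbours named above were compared next, leaving out Pcbd1, Cyp1a1, Sgk1 and Gcgr. The log2 value shrank by over that factor for Cyp1a2 (-0.19, SE 0.68), Ahr (-0.04, SE 0.30), Ido2 (-1.27, SE 1.05) and Nmrk1 (-0.15, SE 0.52). It also shrank by over that factor for Nmnat3 (-0.47, SE 0.63), Tbx3 (0.42, SE 0.38), Zbtb16 (0.77, SE 0.41) and Arnt (0.19, SE 0.25). It grew by over that factor for Acmsd (-2.42, SE 0.86), Ddc (-1.79, SE 0.50) and Got2 (-0.79, SE 0.25), and none of these was called.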

How the data were processed

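The deposited table holds unnormalised read counts by Ensembl identifier for 4 knockout and 4 control livers. Per the labels' protocols the authors aligned with Rsubread 2.20.0 in R 4.4.1; the submitters' processing notes name featureCounts. The build, spelled GRMm38 there, was read as GRCm38. Annotation, strand setting and treatment of shared sequence: not given in the sources used here. Symbols, coordinates and exonic lengths came from GENCODE M21, which matched 48058 of 48440 identifiers, and promoters from RefSeq.

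The test was edgeR 4.0.16 in R 4.3.3, with filterByExpr (minimum count 10, minimum total 15), TMM, genotype as the one term, robust quasi-likelihood and Benjamini-Hochberg adjustment. The SE is the fold change divided by the square root of F. Log2 CPM used a prior count of 2. Groups came from sample titles. Each library is 1 animal, no number is shared between groups, and libraries of a group differed beyond sampling noise (chi-square over degrees of freedom, 12.9 to 24.0). DESeq2 1.42.0 and limma-voom (limma 3.58.1) were among the alternatives. In simulated knockout against control data over 18274 genes, recovery was 28.9% at 1.5-fold, 60.7% at 2-fold and 88.9% at 4-fold, and 5.82% of calls were false. Far fewer genes were changed in the simulation than were called in the livers. With few changed genes the adjustment is stricter, so these rates need not hold for the real comparison.

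The 9 genes, the lists and the tests were chosen with earlier results of these data known. Named genes were the 9, Myo5b, 8 route neighbours (among them Gstz1, Acmsd, Qprt, Kyat1, Kyat3, Aadat and Ido2), the 3 smallest p in each related list, and the 3 genes most like each of the 9, of which the text gives examples. Some results on single genes are not reported here. Of the transcription factors, 2 are also in a marker list. Of the other marker lists, 7 of 9 endothelial genes rose, and 2 of 10 stellate genes rose and 2 fell. In addition, 3 of 9 lymphocyte genes rose, 1 of 8 neutrophil genes fell and none of 7 cholangiocyte genes was called. The shares over all genes tested were 9.27% higher and 11.4% lower.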

Additional observations from a re-analysis of the deposited data

Results flagged for a closer look

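Among the 82 groups of 4 livers examined for the 41 named genes, 9 held a liver that stood apart from the other 3 by Dixon's test; chance flags about 1 in 20 groups. Knockout 278 stood apart for Tat (1174 CPM against 355 to 398 CPM in the other knockouts), for Cyp1a2 (64.0 against 19.8 to 25.8 CPM) and for Slc7a5 (27.3 against 14.4 to 16.5 CPM). Control 282 stood apart for Ido2 (3.93 against 6.97 to 7.12 CPM), Maob (138.7 against 162 to 165 CPM), Nmrk1 (17.2 against 14.1 to 14.4 CPM) and Hlf (47.7 against 37.5 to 38.2 CPM). The remaining ones were Afmid in control 280 (23.9 against 21.7 to 21.9 CPM) and Cebpb in knockout 275 (33.3 against 38.6 to 39.3 CPM).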

How the results depend on the processing

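The 7 falls among the listed genes kept their direction under all 21 alternatives, and 7 or 8 of the 9 were lower under each, apart from the minimum fold of 1.5 (4 lower) and the erythroid covariate (0 lower). Leaving out 1 liver at a time gave 7 to 8 lower. Under the minimum fold of 1.5, 5 of the 79 related genes were lower and 1 higher, and 500 of all genes were lower and 217 higher. With the erythroid covariate these counts were 1 and 0, and 20 and 21. Single omissions gave 7 to 13 related genes higher, 20 to 29 lower, 1223 to 1762 of all genes higher and 1699 to 2167 lower. Tat reversed without knockout 278 (-0.26) and without knockout 278 and control 282 together (-0.44), an omission added after seeing the data. So did Kyat1 (-0.043 and -0.075). Single omissions gave -0.26 to 0.53 for Tat and -0.043 to 0.51 for Kyat1. With the erythroid covariate Dnajc12 (-0.41), Got1 (-0.80), Slc16a10 (0.42) and Slc7a5 (0.31) reversed; the cause was not tested. No paired analysis was possible because the groups share no replicate number. Counts of Ido2 (8 to 120 per liver) and Acmsd (18 to 107) limit the precision of both.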
